A study of Mus musculus with 6 samples.

Results

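The collagen chain genes encode the alpha chains of the collagens, the most abundant proteins of bone and cartilage matrix. They were followed here in osteoblasts of the mouse calvaria, the flat bone of the skull roof, after conditional deletion of Cdc73 (also called Hrpt2), whose product parafibromin is a subunit of the PAF1 complex that travels with RNA polymerase II. The members were 36 collagen genes chosen by symbol out of 27179 gene IDs in the count table. All 36 were found by Entrez ID, and 35 passed the filter on low counts that left 13505 genes for testing; Col4a6 did not pass it. In all, 3 libraries carried the genotype label Cdc73/Hrpt2 KO, with Flox in their titles, and are called knockout 1 to 3. Another 3 were labelled wildtype and are called wildtype 1 to 3. Both groups came from C57Bl/6J pups aged 5 days, whose calvariae were digested with collagenase. Cells of both groups were sorted on GFP that Osteocalcin-Cre controls, a driver active in mature osteoblasts. The labels do not say whether each library came from its own pup or from several, so p-values measure the spread between these libraries, which may be technical.

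Every collagen molecule is a triple helix of 3 alpha chains, built from the same chain or from different ones. Fibrillar collagens (types I, III, V and their relatives) assemble into the cross-banded fibres of bone and skin, with type I making up most of the protein of bone matrix and type V chains helping to start the fibril. Cartilage uses another set, with type II as its main fibril, type XI inside that fibril, type IX on its surface, and type X in the matrix of hypertrophic chondrocytes. Network collagens form sheets and beaded filaments, among them the type IV chains of basement membranes and the type VI chains around cells. FACIT collagens bind to the surface of fibrils, and transmembrane collagens stay anchored in the cell membrane. The 36 genes were grouped by these types, with Col26a1 left unplaced, and the 7 chains of types II, IX, X and XI held together as the cartilage group.

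The libraries held between 13591925 and 20993962 counts, and values are given as CPM (counts for each 1000000 of a library), scaled by the trimmed mean of M-values, which sets each library against the bulk of its genes. Fewer genes had any count in wildtype 2 (14608) and wildtype 3 (15712) than in the other libraries (17068 to 18024). Wildtype 3 nevertheless held more counts than knockout 2 or knockout 3. The part of this in the low collagen values of wildtype 2 and wildtype 3 was not tested. Cdc73 itself was read at 13.98, 14.73 and 14.40 CPM in knockout 1 to 3 and at 20.50, 12.80 and 21.73 CPM in wildtype 1 to 3. Wildtype 2 was the lowest of the 6, so the groups overlapped and the level of the targeted gene does not check every label. The labels are therefore used as given, and a direction below is a direction between libraries labelled knockout and wildtype. The log2 fold change of Cdc73 was -0.36 ± 0.22 (SE), with an adjusted p of 0.428 (edgeR's quasi-likelihood test, Benjamini-Hochberg over all genes tested). Wildtype 1 stood nearer to the knockouts than to its own group: on log2(CPM + 1) over the genes tested, it correlated at 0.979 to 0.988 with the 3 knockout libraries and at 0.964 and 0.958 with wildtype 2 and wildtype 3. Where leaving it out changed a call or moved a fold change named here by over 1.5 times, the value without it is given too.

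Collagen transcripts made up a large part of each library. They took 29.59%, 27.14% and 31.64% of all counts in knockout 1 to 3 and 34.62%, 36.40% and 34.40% in wildtype 1 to 3, so every knockout library lay below every wildtype library on this share. Col1a1 and Col1a2 alone gave 23.72%, 22.31% and 27.48% of all counts in the knockouts and 29.80%, 31.33% and 31.58% in the wildtypes. Each share is of a total that the other genes also fill, so a higher level of other genes lowers it.

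Levels of different genes were compared per kilobase of annotated exon. Averaged over the 6 libraries, Col1a1 stood first at 29340 CPM per kb and Col1a2 next at 19340, followed by Col3a1 at 2019, Col2a1 at 1112, Col5a2 at 906.5 and Col11a2 at 635.0 CPM per kb. Col2a1 reached that place through the knockouts, where its mean was 1871 CPM per kb, the same range as Col3a1 at 1869, against 353.5 CPM per kb in the wildtypes. At the other end Col4a5, Col7a1, Col28a1 and Col4a6 all averaged under 1 CPM per kb, from 0.646 for Col4a5 down to 0.0487 for Col4a6. The level of one collagen gene thus differed from that of another by more than 5 orders of magnitude within the same libraries.

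**Figure D1:**
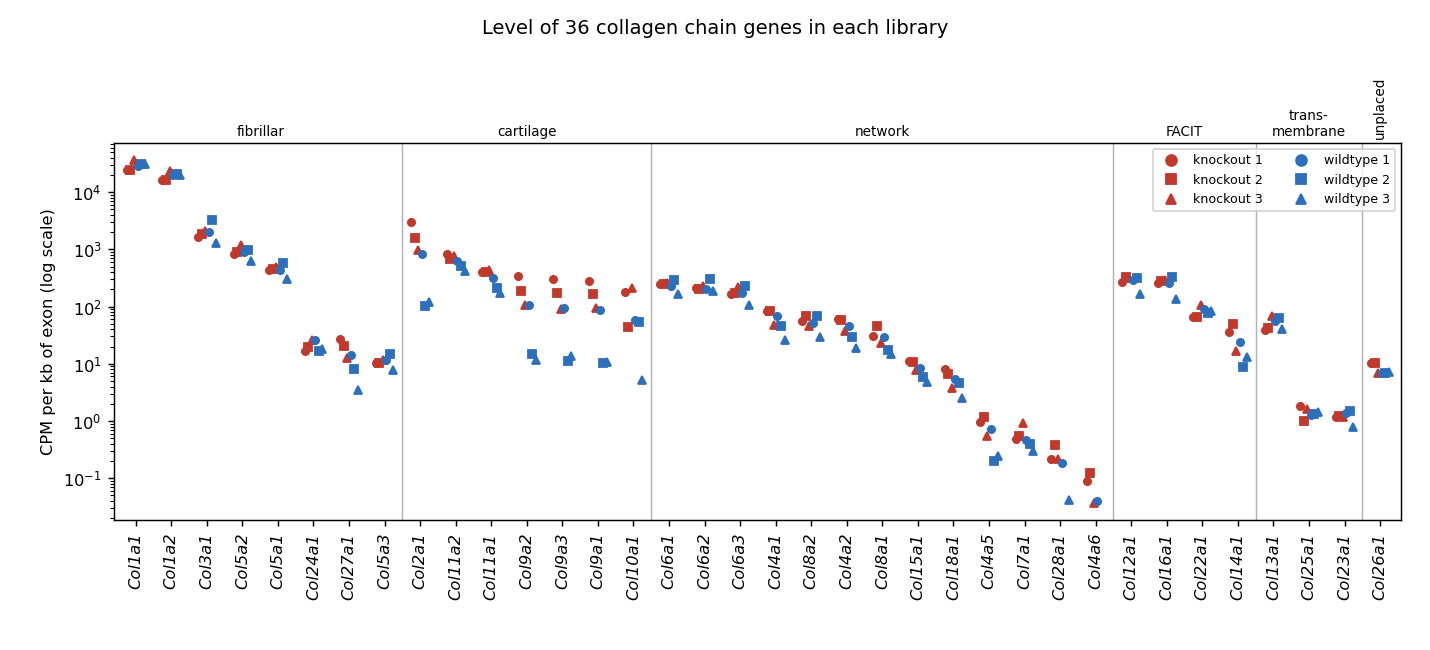
Level of each of the 36 collagen chain genes (CPM per kb of exon, log axis), with 1 point per library, knockouts in red and wildtypes in blue, and genes grouped by collagen type. Libraries with 0 counts (Col4a6 in wildtype 2 and wildtype 3, Col28a1 in wildtype 2) are not drawn; the points of Col1a1 and Col1a2 lie close together, while those of Col2a1 and the Col9 genes are spread over more than a decade with wildtype 2 and wildtype 3 at the bottom.

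The 7 cartilage chains were all higher in the knockouts, with a median log2 fold change of 2.23, whereas the 8 fibrillar chains had a median of -0.02 and were split, 4 higher and 4 lower. The 12 network chains tested had a median of 0.62 with 11 higher, the 4 FACIT chains 0.20 with 3 higher, and the 3 transmembrane chains -0.04 with 1 higher. Over all 35 chains tested, 27 were higher and the median was 0.41, beside a median of -0.01 over all genes tested, of which 49.33% were higher. Without the cartilage group the other 28 chains had a median of 0.19. These counts leaned on wildtype 3: without it 20 of the 35 chains were higher, the median of the 28 outside the cartilage group was -0.03 with 13 higher, the network median was 0.37 with 8 of 12 higher, and the FACIT median turned to -0.07 with 1 of 4 higher. The cartilage chains remained higher in 7 of 7 cases, with a median of 1.81.

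None of these differences passed the test that all genes underwent. With edgeR and Benjamini-Hochberg adjustment, 0 of the 35 chains had an adjusted p under 0.05, and neither did any other gene (0.0% of 13505). At an unadjusted p under 0.05 there were 13 chains higher in the knockouts and 0 lower, where 8.26% of all genes were higher and 6.35% lower. For 7 chains, Col2a1, Col9a1, Col9a2, Col11a1, Col11a2, Col7a1 and Col28a1, the 3 knockouts were all above the 3 wildtypes, and for 0 chains all below; over all genes tested these shares were 10.6% and 9.81%. DESeq2 called 1 chain, Col11a1, among its 1.78% of genes higher, and 0 chains among its 0.254% lower. Without wildtype 1, edgeR called 6 chains higher (Col2a1, Col9a1, Col9a2, Col9a3, Col11a1 and Col4a5) beside 2.13% of all genes, and 0 lower beside 0.832%.

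**Figure D2:**
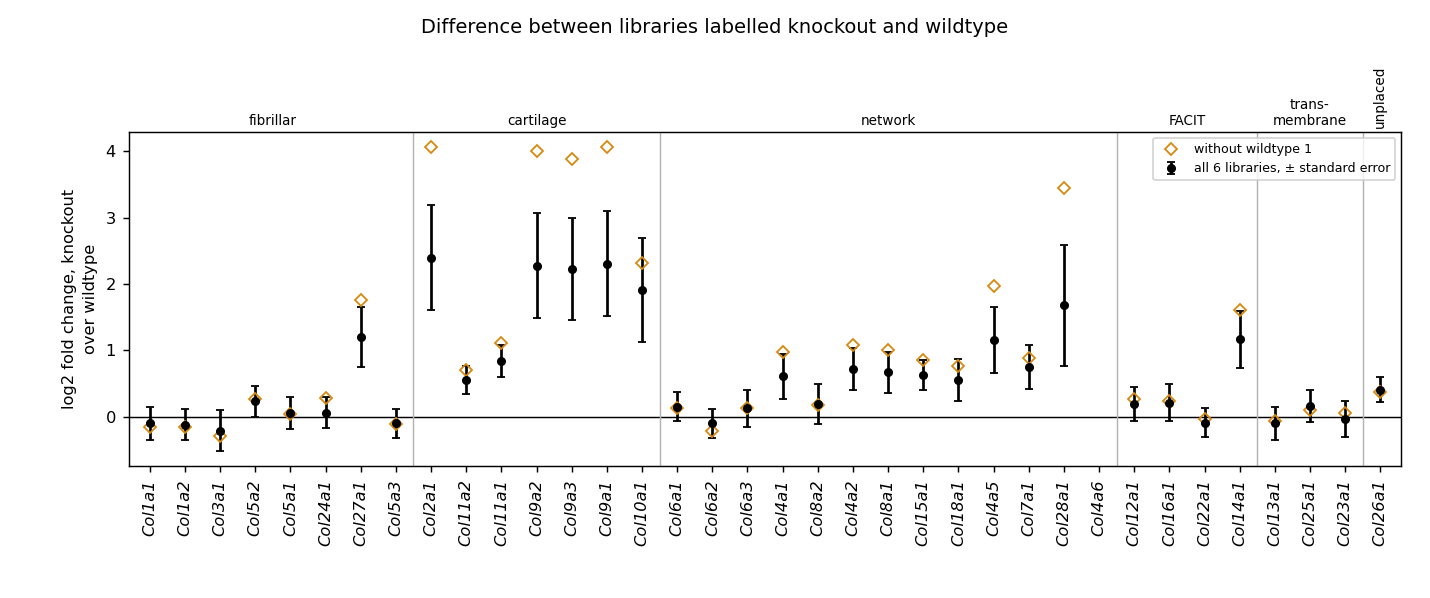
Log2 fold change, knockout over wildtype, of the 35 collagen chain genes tested; black points with bars are the edgeR estimates from all 6 libraries ± SE and open diamonds the estimates without wildtype 1. Col4a6 was not tested and has no point; the cartilage group lies between 0.56 and 2.40, and its diamonds for Col2a1 and the Col9 genes lie between 3.88 and 4.07, while most fibrillar chains lie near 0.

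The chains of type I collagen, the main product of osteoblasts, showed no difference in scaled CPM that exceeded the spread between libraries. The order of the libraries depended on the scaling. Col1a1 (GRCm38.p6, chr11:94936224-94953042) was read at 146000, 143500 and 214900 CPM in knockout 1 to 3 and at 168700, 185400 and 185500 CPM in wildtype 1 to 3. Knockout 3 was the highest of the 6 and the other 2 knockouts were the lowest, so the wildtypes lay within the range of the knockouts. The log2 fold change was -0.10 ± 0.25 (edgeR, adjusted p 0.859). Col1a2 (chr6:4505618-4541543), the partner chain, was read at 87170, 86550 and 123200 CPM against 104800, 110700 and 108100 CPM. It had the same order between groups, with knockout 3 at the top and the other 2 knockouts at the bottom, and a log2 fold change of -0.12 ± 0.23. As an unscaled share of all counts, every knockout lay below every wildtype for both chains. Col1a1 took 14.85%, 13.92% and 17.46% in the knockouts against 18.38%, 19.62% and 19.95%. For Col1a2 the shares were 8.869%, 8.394% and 10.01% against 11.42%, 11.71% and 11.63%. Scaled by library size alone, the log2 fold changes were -0.33 for Col1a1 and -0.35 for Col1a2 (edgeR, adjusted p 0.184 and 0.173). On that scaling all genes tested shifted the same way, with a median of -0.21 and 4335 of 13505 higher. How many of all genes separated the groups on the unscaled share was not counted. The 2 chains moved together from library to library: the ratio of Col1a1 to Col1a2 per length was 1.510, 1.495 and 1.573 in the knockouts and 1.451, 1.511 and 1.547 in the wildtypes, a span of only 1.084-fold over all 6.

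Among the other fibrillar chains, the type III and type V genes also lay in overlapping ranges. Col3a1, the homotrimeric fibril chain of soft connective tissue, was read at 9311, 10220 and 11660 CPM in the knockouts and at 11120, 17800 and 7271 CPM in the wildtypes. The wildtypes held both the highest library (wildtype 2) and the lowest (wildtype 3), and the log2 fold change was -0.21 ± 0.31. Col5a2, a type V chain, was read at 5590, 5858 and 8006 CPM against 5948, 6433 and 4198 CPM, again with wildtype 3 lowest, and had a log2 fold change of 0.23 ± 0.24. Col5a1, Col5a3 and Col24a1 had log2 fold changes of 0.06 ± 0.24, -0.10 ± 0.22 and 0.06 ± 0.23, all with overlapping groups. The signs of Col1a1, Col3a1, Col5a1, Col5a3 and Col24a1 each turned when a single library was left out.

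Col27a1 stood apart from the rest of the fibrillar group. It encodes a fibrillar chain found in cartilage as well as other tissues, and its gene (chr4:63214009-63334991) contains the microRNA gene Mir455. Its level was 206.9, 152.7 and 96.75 CPM in knockout 1 to 3 and 109.7, 61.83 and 26.87 CPM in wildtype 1 to 3. Knockout 3 lay below wildtype 1, so the groups overlapped, with knockout 1 and knockout 2 highest and wildtype 3 lowest. The log2 fold change was 1.20 ± 0.45 (edgeR, unadjusted p 0.0235, adjusted p 0.302), the widest difference in the fibrillar group, and 1.76 without wildtype 1 (adjusted p 0.0576).

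The cartilage chains carried the widest differences among the collagens. Col2a1 (chr15:97975602-98004724), the single chain of type II collagen, was read at 15630, 8059 and 4958 CPM in knockout 1 to 3 and at 4288, 518.3 and 606.3 CPM in wildtype 1 to 3. All 3 knockouts lay above all 3 wildtypes, but knockout 3 and wildtype 1 were near neighbours, and wildtype 2 and wildtype 3 were far below both. The log2 fold change was 2.40 ± 0.79, 5.291-fold (edgeR, unadjusted p 0.0127, adjusted p 0.288). Wildtype 1 alone was 7.63-fold above the mean of wildtype 2 and wildtype 3, while the mean of the knockouts was 2.23-fold above wildtype 1. Without wildtype 1 the log2 fold change was 4.06 and the adjusted p 0.0301.

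The 3 chains of type IX collagen, which join in 1 molecule on the surface of the type II fibril, repeated the order of Col2a1 closely. Col9a1 was read at 1151, 686.7 and 391.8 CPM in the knockouts and at 362.2, 42.70 and 44.18 CPM in the wildtypes, with a log2 fold change of 2.31 ± 0.79. Col9a2 was read at 1001, 556.3 and 316.8 CPM against 307.9, 43.26 and 33.56 CPM, with a log2 fold change of 2.28 ± 0.79. For both genes the lowest knockout was only just above wildtype 1, and the remaining wildtypes were several-fold lower. Col9a3 was read at 908.0, 523.0 and 275.2 CPM against 286.8, 34.01 and 41.97 CPM, with a log2 fold change of 2.23 ± 0.77, and here wildtype 1 lay above knockout 3. Without wildtype 1 the 3 estimates lay between 3.88 and 4.07, each with an adjusted p of 0.0301 (edgeR). Col9a3 overlaps the gene Tcfl5 in the annotation, and no source used here says whether the counting used strand.

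The type XI chains differed less but with less spread between libraries. Col11a1 (chr3:114030479-114220756) was read at 3138, 3103 and 3362 CPM in the knockouts and at 2432, 1616 and 1319 CPM in the wildtypes. The 3 knockouts lay close together and all above wildtype 1, the highest of its group. The log2 fold change was 0.84 ± 0.24, with the smallest unadjusted p of any collagen chain (edgeR, 0.00657, adjusted p 0.273); DESeq2 gave an adjusted p of 0.0163, and edgeR without wildtype 1 a log2 fold change of 1.11 and an adjusted p of 0.0456. Col11a2 (chr17:34038919-34066684) was read at 5278, 4325 and 4732 CPM against 3928, 3166 and 2598 CPM, also without overlap. Its log2 fold change was 0.56 ± 0.21 (edgeR, unadjusted p 0.0254, adjusted p 0.308). Type XI chains are found in fibrils of bone as well as cartilage, and in wildtype 2 and wildtype 3 their levels per length were above that of Col2a1.

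Col10a1, the single chain of type X collagen and a textbook marker of hypertrophic chondrocytes, departed from the order of the other cartilage chains. It was read at 567.2, 139.1 and 664.1 CPM in knockout 1 to 3 and at 182.0, 165.7 and 16.30 CPM in wildtype 1 to 3. Knockout 3 was the highest library, although it was the lowest knockout for Col2a1 and the Col9 genes. Knockout 2 lay below both wildtype 1 and wildtype 2, so the groups overlapped. The log2 fold change was 1.91 ± 0.78 (edgeR, unadjusted p 0.0348, adjusted p 0.322), and without wildtype 1 it was 2.32 with an adjusted p of 0.155. Col10a1 (chr10:34389981-34397085) lies within the gene Nt5dc1 on the opposite strand.

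The stretches before the starts of Col10a1, of Col8a1 and of Col3a1 are set side by side below, because type VIII is the other short-chain collagen and the closest relative of type X, and because Col3a1 shares with Col10a1 the letters of the TATA box. Each is the 150 bases before the RefSeq gene start on the strand of the gene in GRCm38.p6, and holds no annotated exon. Capitals mark the letters TATAAA of the TATA box, and CCGCCC, which is the GC box GGGCGG read on the other strand. The positions are chr10:34389831-34389980 on the plus strand for Col10a1, chr16:57754738-57754887 on the minus strand for Col8a1 and chr1:45311388-45311537 on the plus strand for Col3a1.
Col10a1: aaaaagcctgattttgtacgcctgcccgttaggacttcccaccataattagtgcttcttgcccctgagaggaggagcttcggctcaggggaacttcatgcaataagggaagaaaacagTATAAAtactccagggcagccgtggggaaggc
Col8a1: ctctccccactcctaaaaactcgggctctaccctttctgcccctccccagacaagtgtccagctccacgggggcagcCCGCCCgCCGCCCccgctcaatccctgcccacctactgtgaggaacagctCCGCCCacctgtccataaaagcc
Col3a1: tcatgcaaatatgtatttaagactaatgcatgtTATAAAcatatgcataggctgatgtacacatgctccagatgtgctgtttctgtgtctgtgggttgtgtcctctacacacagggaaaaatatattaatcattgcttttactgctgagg
In Col10a1 the TATAAA began 32 bases before the start, at position -32, and in Col3a1 at position -117. Col8a1 held none, and held 3 GC boxes instead. The GC content was 50.7% for Col10a1, 64.7% for Col8a1 and 37.3% for Col3a1. RefSeq gave upstream stretches for 28 of the 36 genes, 31 stretches in all. Only 6 of the 31 lay before the RefSeq gene start and held no annotated exon, as the 3 above do. The shares that follow are over all stretches, with or without exons. TATAAA occurred in 9.68% of the 31 (3 stretches), and GGGCGG in 51.6% (16 stretches), searching both strands. Over 32851 stretches of all genes, also with or without exons, the shares were 7.57% and 28.6%. CCAAT occurred in 22.6% of the collagen stretches and 24.5% of all. The core letters bound by SOX proteins, ACAAT, occurred in 3.23% against 17.4%. The core letters bound by RUNX proteins, TGTGGT, occurred in 3.23% against 8.40%. A match is a description of the letters and not a site of binding.

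Other genes that mark chondrocytes were high in the same libraries as the cartilage collagens. In a list of 15 chondrocyte genes that are not collagens, all 15 were higher in the knockouts, with a median log2 fold change of 1.79, 13 at an unadjusted p under 0.05 and 0 at an adjusted p under 0.05 (edgeR). DESeq2 called 4 of the 15, the replicate block 11, and edgeR without wildtype 1 called 10, with a median of 2.57. Over all 13505 genes tested, the replicate block called 226 higher and 10 lower. Acan, which encodes the main proteoglycan of cartilage, was read at 1033, 617.2 and 478.0 CPM in the knockouts and at 370.9, 145.9 and 90.10 CPM in the wildtypes, a log2 fold change of 1.81 ± 0.49, or 2.57 without wildtype 1 (edgeR, adjusted p 0.0301). Sox9, the transcription factor that directs chondrocyte fate, had a log2 fold change of 1.35 ± 0.36. The summed level of the list was 3113, 1759 and 1345 CPM in knockout 1 to 3 and 1099, 331.8 and 299.5 CPM in wildtype 1 to 3, the order of libraries seen for Col2a1 except that wildtype 2 and wildtype 3 changed places. None of the 15 was at 0 in any library. In sorted bulk RNA, more cells of a type and more RNA per cell cannot be told apart, and the part of these cells in the collagen differences was not tested.

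Set against the marker genes within each library, the cartilage chains differed among themselves. The marker mean was taken on log2(CPM + 1). The added 1 lifts that mean most where markers are low, as in wildtype 2 and wildtype 3. The log2 level of Col2a1 above the mean of the 15 markers was 7.66, 7.36 and 6.98 in the knockouts and 7.03, 5.68 and 5.72 in the wildtypes. On this measure Col2a1 was lowest in wildtype 2 and wildtype 3. For Col11a2 the same quantity ran the other way, at 6.09, 6.46 and 6.91 against 6.90, 8.30 and 7.82. Col10a1 followed neither pattern, at 2.87, 1.51 and 4.08 against 2.47, 4.04 and 0.51. For Col1a1 the level above the mean of 13 osteoblast genes that are not collagens was 8.84, 8.94 and 8.83 in the knockouts and 8.77, 8.87 and 8.55 in the wildtypes, a difference of 0.14. Those 13 osteoblast genes had a median log2 fold change of -0.36, with 3 higher and 10 lower. By edgeR 0 had an adjusted p under 0.05. Before adjustment, 3 of the lower genes and 1 of the higher genes fell below 0.05. DESeq2 called 1 gene of the list, Sp7, which was lower (adjusted p 0.0496). Its log2 fold change was -0.62 ± 0.19 (edgeR), with every knockout below every wildtype. Dmp1 went the other way, at 0.42 ± 0.16, with every knockout above every wildtype. The summed level of the 13 genes was 9782, 8194 and 14590 CPM against 9289, 9366 and 15130 CPM.

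**Figure D3:**
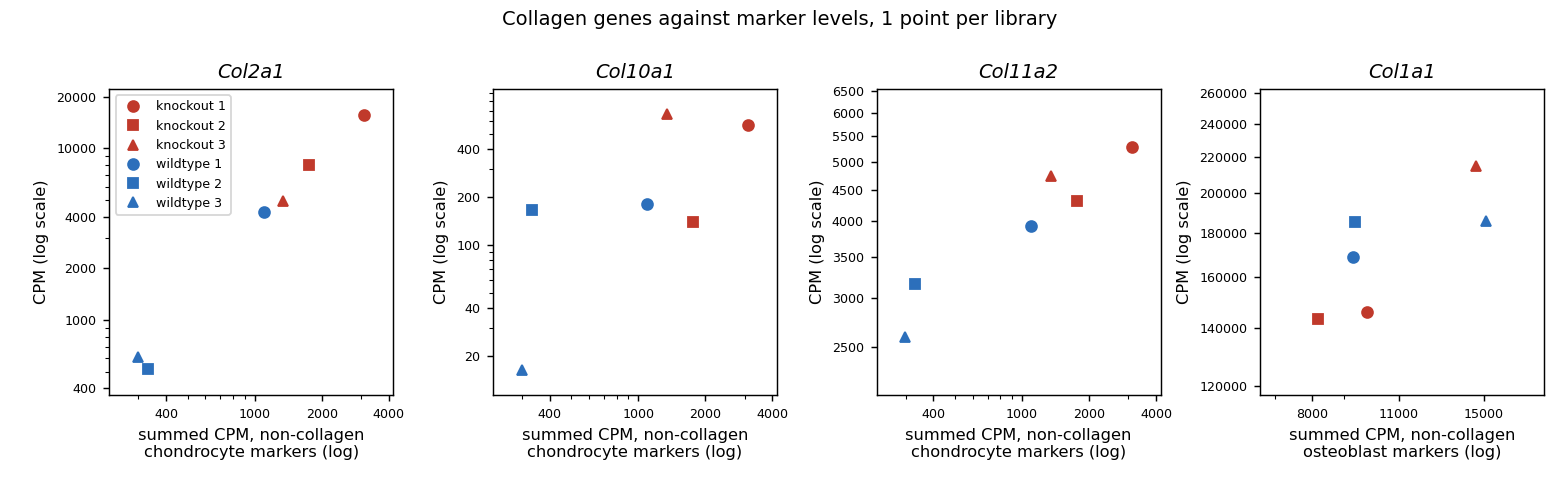
CPM of Col2a1, Col10a1 and Col11a2 against the summed CPM of 15 chondrocyte genes that are not collagens, and of Col1a1 against that of 13 osteoblast genes, with 1 point per library and log axes. Col2a1 and Col11a2 are lowest in wildtype 2 and wildtype 3, where the chondrocyte sum is 331.8 and 299.5 CPM, and highest in knockout 1 at 3113 CPM, while Col10a1 is highest in knockout 3.

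Network collagens were next in size of difference, and the 5 basement membrane chains tested were all higher in the knockouts. Col4a1 and Col4a2, the pair that forms the common type IV network, lie head to head on chromosome 8 with 85 annotated bases in common on opposite strands. Col4a1 was read at 554.5, 543.8 and 321.0 CPM in the knockouts and at 453.0, 308.4 and 169.3 CPM in the wildtypes, with a log2 fold change of 0.61 ± 0.34. Col4a2 was read at 389.0, 375.8 and 239.9 CPM against 297.7, 189.7 and 123.2 CPM, with a log2 fold change of 0.72 ± 0.31 (edgeR, unadjusted p 0.0467, adjusted p 0.338). For both genes knockout 1 and knockout 2 were highest and wildtype 3 lowest, with wildtype 1 above knockout 3.

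Col15a1 and Col18a1, the basement membrane collagens whose C-terminal fragments are known as restin and endostatin, had the same direction. Col15a1 was read at 66.30, 63.66 and 47.14 CPM in the knockouts and at 50.01, 35.33 and 29.26 CPM in the wildtypes, with a log2 fold change of 0.63 ± 0.22 (edgeR, unadjusted p 0.0196, adjusted p 0.302). Col18a1 had a log2 fold change of 0.55 ± 0.32, and overlaps the gene Slc19a1. Knockout 3 lay below wildtype 1 for both, so neither gene separated the groups. Col4a5 was scarce, at 6.24, 7.71 and 3.62 CPM against 4.81, 1.32 and 1.61 CPM, and had a log2 fold change of 1.16 ± 0.50 (edgeR, adjusted p 0.335), or 1.97 without wildtype 1 (adjusted p 0.0486). Its neighbour Col4a6, 1.274 kb away on chromosome X, had 10, 12 and 3 counts in the knockouts and 6, 0 and 0 in the wildtypes. At the depth of wildtype 2 and wildtype 3, a count of 0 allows up to 0.209 and 0.179 CPM of Col4a6 (3 counts, counting error only). These libraries also had the fewest genes detected, which that limit leaves out.

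Markers of vessels and of macrophages were high in the same libraries as these chains. The 9 endothelial genes listed were all higher in the knockouts, with a median log2 fold change of 1.30, 7 at an unadjusted p under 0.05 and 0 at an adjusted one (edgeR), and a summed level of 268.2, 250.3 and 181.4 CPM in knockout 1 to 3 against 175.8, 107.9 and 85.26 CPM in wildtype 1 to 3. That order of libraries is the one of Col4a2 apart from the close pair of knockout 3 and wildtype 1. The 9 macrophage genes were also all higher, with a median of 1.20 and a summed level of 307.4, 218.8 and 131.7 CPM against 101.9, 112.3 and 76.55 CPM. Without wildtype 1 edgeR called 7 of the 9 endothelial genes, with a median of 2.08, and 0 of the macrophage genes, with a median of 1.16. With all libraries, DESeq2 called 3 of the endothelial and 5 of the macrophage genes, and the replicate block 7 and 4, beside 226 of all 13505 genes called higher by the block. No endothelial or macrophage marker was at 0 in any library, and their part in the type IV result was not tested. Of the remaining lists, the median log2 fold change was 1.58 for red cell genes, 1.00 for osteoclast genes, 0.24 for tendon and fibroblast genes, 0.02 for smooth muscle and pericyte genes and -0.62 for skeletal muscle genes.

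The chains of types VII, VIII and XXVIII had log2 fold changes between 0.19 and 1.68, and none passed the adjusted threshold (edgeR). Col7a1, the chain of the anchoring fibrils under epithelia, was read at 4.44, 5.00 and 8.56 CPM in the knockouts and at 4.24, 3.62 and 2.75 CPM in the wildtypes. The groups did not overlap, by a margin of knockout 1 over wildtype 1 that is small beside the spread, and the log2 fold change was 0.75 ± 0.33 (edgeR, unadjusted p 0.0467, adjusted p 0.338). Col28a1, a relative of the beaded-filament chains, had 15, 23 and 11 counts in the knockouts and 18, 0 and 3 in the wildtypes, and its log2 fold change of 1.68 ± 0.91 rests on these few counts and was 3.45 without wildtype 1. Col8a1 was read at 153.6, 230.4 and 116.2 CPM against 150.7, 89.79 and 74.70 CPM, with a log2 fold change of 0.67 ± 0.31, whereas its partner Col8a2 had 0.19 ± 0.30, a sign that turned without wildtype 3.

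The 3 type VI chains, which assemble into 1 beaded filament around cells, had overlapping levels. Col6a1 was read at 1027, 1018 and 1077 CPM in the knockouts and at 922.5, 1194 and 690.8 CPM in the wildtypes, a log2 fold change of 0.15 ± 0.22. The 3 knockouts lay within a narrow band, and the wildtypes spread on both sides of it. Col6a2 was read at 1276, 1224 and 1361 CPM against 1212, 1828 and 1108 CPM, with a log2 fold change of -0.10 ± 0.22. Col6a3 had a log2 fold change of 0.13 ± 0.28. Wildtype 2 was the highest library and wildtype 3 the lowest for each of the 3 genes, and each sign turned when 1 of these libraries was left out.

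In the FACIT group, 1 gene of 4 differed at an unadjusted p under 0.05. Col14a1, which encodes a FACIT chain of tendon and skin, was read at 232.5, 325.8 and 106.6 CPM in the knockouts and at 153.1, 57.03 and 85.32 CPM in the wildtypes, and its log2 fold change was 1.17 ± 0.43 (edgeR, unadjusted p 0.0223, adjusted p 0.302). Wildtype 1 lay above knockout 3, so the groups overlapped. Col12a1, the most abundant FACIT gene, was read at 3203, 3922 and 3804 CPM against 3593, 3915 and 2053 CPM, with a log2 fold change of 0.19 ± 0.26. Col16a1 was read at 1329, 1468 and 1510 CPM against 1326, 1691 and 718.1 CPM, with a log2 fold change of 0.21 ± 0.28. In both, wildtype 3 was well below the other 5 libraries and those 5 overlapped. Col22a1 was read at 598.3, 596.3 and 943.9 CPM against 822.9, 690.9 and 755.6 CPM, with knockout 3 highest and the other 2 knockouts lowest as for Col1a1, and a log2 fold change of -0.09 ± 0.22. The signs of Col12a1, Col16a1 and Col22a1 turned when a single library was left out.

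The transmembrane chains showed no difference larger than its error. Col13a1, found at cell adhesion sites, was read at 122.6, 135.5 and 218.7 CPM in the knockouts and at 179.1, 200.8 and 130.0 CPM in the wildtypes, and its log2 fold change was -0.10 ± 0.25. Col23a1 was read at 6.60, 6.95 and 6.66 CPM against 7.83, 8.49 and 4.42 CPM, a log2 fold change of -0.04 ± 0.27. The knockouts agreed within a narrow band inside the range of the wildtypes. Col25a1 was read at 12.84, 7.02 and 11.27 CPM against 8.87, 9.32 and 9.79 CPM, a log2 fold change of 0.16 ± 0.24, and here the wildtypes were the narrow group. The signs of all 3 turned when a single library was left out. The unplaced Col26a1 was read at 29.04, 29.33 and 19.42 CPM against 19.41, 19.47 and 19.82 CPM, with a log2 fold change of 0.41 ± 0.19 (edgeR, unadjusted p 0.0596, adjusted p 0.354). Its level in knockout 3 was that of the wildtypes, and the other 2 knockouts were higher.

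Wildtype 3 was the library that most often lay lowest. It was the lowest library for 22 of the 35 chains tested (62.9%, beside 27.7% of all genes tested) and the highest for 0 of them (0.0%, beside 28.5%). Wildtype 1 was above both other wildtypes for 19 chains (54.3%, beside 33.6% of all genes). Wildtype 2 was the highest library for 9 chains (25.7%, beside 21.3% of all genes), among them Col3a1, Col5a1, Col5a3, Col16a1 and the 3 type VI genes. Knockout 3 was the highest for another 9 (25.7%, beside 10.2%), among them Col1a1, Col1a2, Col5a2 and Col10a1. Knockout 1 led in 11 chains (31.4%, beside 13.5%), among them Col2a1 and the 3 Col9 genes.

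Ratios of chains within a library do not depend on how libraries are scaled to each other, and show which chains kept step. The 8 pairs with the narrowest spans all joined chains of the same collagen type. Besides Col1a1 to Col1a2, the ratio of Col4a1 to Col4a2 per length stayed between 1.305 and 1.585, a span of 1.215-fold, although the level of each gene varied more than that. The ratio of Col9a1 to Col9a2 was 0.819, 0.879 and 0.881 in the knockouts and 0.838, 0.703 and 0.938 in the wildtypes, while each of these genes differed by more than a decade between knockout 1 and wildtype 2. The ratio of Col9a3 to Col9a2 lay between 0.755 and 1.201, that of Col6a3 to Col6a1 between 0.626 and 0.837, and that of Col5a1 to Col5a2 between 0.400 and 0.586. The groups overlapped for each of these pairs. Col8a1 to Col8a2, also chains of 1 collagen type, did not keep step, with ratios between 0.253 and 0.658, a span of 2.602-fold.

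In 3 of 15 pairs the lowest knockout ratio was above the highest wildtype ratio, and in 0 pairs the reverse held. Under the exact two-sided permutation test of 3 libraries against 3, the smallest p that can be reached is 0.1, so no pair could pass a threshold of 0.05. Col6a1 to Col6a2 was 1.179, 1.219 and 1.160 in the knockouts and 1.115, 0.958 and 0.914 in the wildtypes, a log2 difference of 0.26 (exact permutation p 0.1, adjusted over 15 pairs 0.5). Col5a2 to Col1a1 had a log2 difference of 0.36 and Col11a1 to Col1a1 one of 1.01, with the same p. For Col11a1 to Col1a1 the ratio was 0.0166, 0.0167 and 0.0121 in the knockouts and 0.0112, 0.00674 and 0.00550 in the wildtypes.

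**Figure D4:**
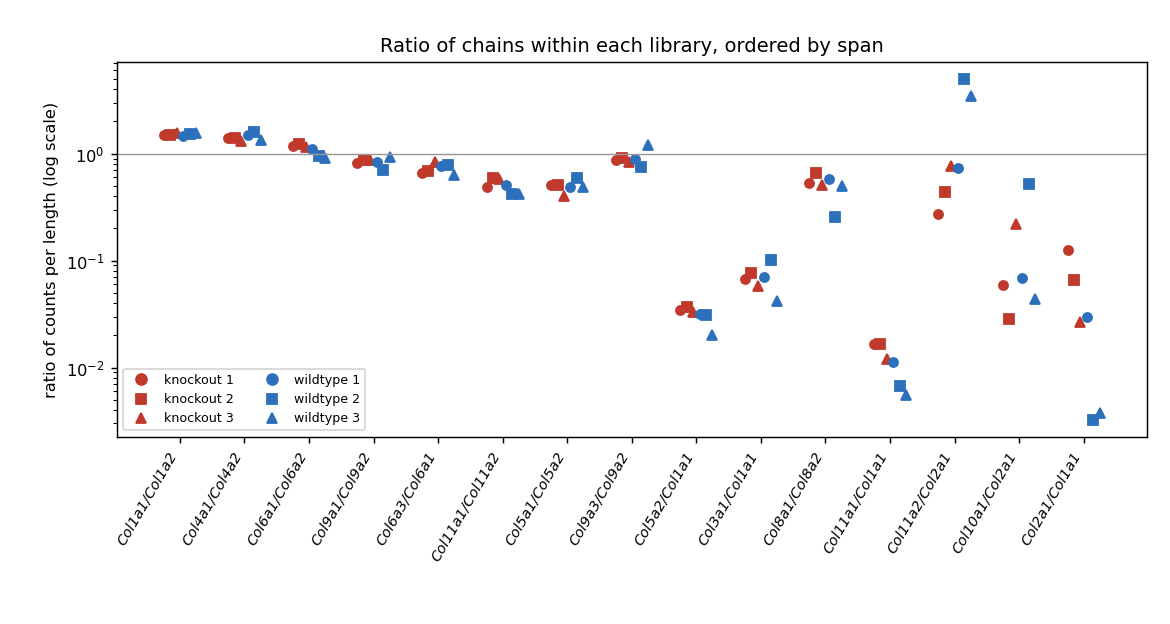
Ratio of counts per exon length for 15 pairs of collagen chains (log axis), with 1 point per library, and pairs ordered by their span over the 6 libraries. Col1a1 to Col1a2 varies least (1.084-fold) and Col2a1 to Col1a1 most (38.29-fold), with wildtype 2 and wildtype 3 lowest for the latter.

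The 3 widest spans belonged to pairs that hold Col2a1. Col2a1 to Col1a1 was 0.124, 0.0652 and 0.0268 in the knockouts and 0.0295, 0.00325 and 0.00380 in the wildtypes, a span of 38.29-fold and a log2 difference of 3.07 (exact permutation p 0.2). Knockout 3 lay below wildtype 1, so this pair did not separate the groups. Col11a2 to Col2a1 was 0.273, 0.434 and 0.773 against 0.741, 4.943 and 3.468, so that Col11a2 outnumbered Col2a1 per length in wildtype 2 and wildtype 3 alone. Col10a1 to Col2a1 was 0.0592, 0.0282 and 0.218 against 0.0692, 0.522 and 0.0439, with no order between the groups (exact permutation p 0.6). As a share of all collagen counts per length, the 7 cartilage chains made up 10.63%, 6.683% and 3.953% in knockout 1 to 3 and 3.859%, 1.520% and 1.340% in wildtype 1 to 3. The fibrillar chains made up 86.32%, 89.87% and 93.56% against 93.35%, 95.45% and 96.84%.

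The genes that make, cut and cross-link collagen showed a smaller shift than the cartilage and network chains. Of 34 such genes 33 were tested, 22 were higher and 11 lower in the knockouts, and the median log2 fold change was 0.10. At an unadjusted p under 0.05 there were 2 higher and 0 lower, where 8.26% and 6.35% of all genes were, and 0 passed the adjusted threshold (edgeR). Plod2, the lysyl hydroxylase of the telopeptides that sets the type of cross-link, was read at 145.1, 157.1 and 114.1 CPM in the knockouts and at 104.0, 62.59 and 67.95 CPM in the wildtypes, without overlap. Its log2 fold change was 0.83 ± 0.22, with an unadjusted p of 0.0045 and an adjusted p of 0.273 (edgeR), 0.0262 with DESeq2, and 0.0378 with edgeR without wildtype 1. Pcolce2, an enhancer of procollagen cleavage, had a log2 fold change of 0.81 ± 0.33. Sparc, a collagen-binding protein of bone, and Serpinh1, the collagen chaperone HSP47, were the most abundant of the list and had log2 fold changes of -0.07 ± 0.25 and -0.06 ± 0.21.

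Collagen receptors were tested in 8 of 10 cases, and their median log2 fold change was 0.06. Itga2, an integrin subunit that binds collagen, was alone among them at an unadjusted p under 0.05 in either direction, at 4.26, 4.52 and 2.63 CPM in the knockouts and 2.54, 1.39 and 1.19 CPM in the wildtypes, a log2 fold change of 1.14 ± 0.41 (edgeR, adjusted p 0.302). The groups did not overlap, but the levels were low. Itgb1 and Mrc2, an endocytic collagen receptor, were the most abundant, with log2 fold changes of 0.05 ± 0.16 and 0.25 ± 0.17. Of 8 collagen genes outside the 36, 4 passed the filter and their median was 1.04. Col20a1 was read at 3.48, 3.89 and 2.80 CPM in the knockouts against 1.66, 0.487 and 0.239 CPM in the wildtypes, a log2 fold change of 2.03 ± 0.62 (edgeR, adjusted p 0.278), or 3.20 without wildtype 1 (adjusted p 0.0367). Col6a6 had a log2 fold change of 1.23 ± 0.40, and its paralogue Col6a5, with levels of 6.60, 8.27 and 8.72 CPM against 10.19, 15.30 and 8.78 CPM, had -0.54 ± 0.25.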

How the data were processed

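Gene counts for 6 libraries were deposited by the authors as 1 table of whole reads per Entrez gene ID; per the submitters' processing notes, CASAVA 1.7, Subread and featureCounts were used with the mm10 build. The annotation and strand setting were not given there. Groups came from the titles. Symbols and positions came from RefSeq (GRCm38.p6, the assembly of mm10), which with 18 IDs from GENCODE named 93.1% of IDs. Exon and transcript lengths came from the basic annotation of GENCODE M21. Counts were fitted over all genes with edgeR 4.0.16 in R 4.3.3 (filterByExpr, TMM factors of 0.813 to 1.091, quasi-likelihood test, Benjamini-Hochberg, threshold 0.05, SE from the fold change and F), and the collagen rows were read from that fit. The fit was tested on simulated counts. Chain ratios used counts per exon length with a pseudocount of 0.5 and exact permutation tests. Alternatives were DESeq2 1.42.0, limma 3.58.1 (voom), other scalings and filters, a replicate block and leaving out each library. The members and the 12 marker and pathway lists were chosen with earlier results of these data known. Every member was accounted for. Values in each library were given for Col1a1, Col1a2, Col2a1 and Col10a1, and for the most abundant chain and up to 4 chains of smallest p in each type. They were also given for chains in a named ratio, except Col5a1, Col6a3 and Col8a2. Of other lists, genes of smallest p or highest level were named. Col26a1, Acan and Sox9 were named after their values were seen.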

Additional observations from a re-analysis of the deposited data

How the results depend on the processing

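Against 0 genes called over all 13505 and 0 collagen chains called, DESeq2 called 248 genes and 1 chain (Col11a1), edgeR without the filter on low counts 24 genes and 0 chains, and the fit with a replicate block 236 genes and 5 chains (Col27a1, Col2a1 and the 3 Col9 genes). The labels do not say whether equal numbers pair the libraries. Deviations from the group means correlated at 0.045, -0.058 and 0.27 for same-numbered libraries, and highest for knockout 2 with wildtype 1, at 0.422. With 3 libraries a group, these correlations cannot decide whether the libraries are paired. Leaving out 1 library at a time gave 0 to 409 genes and 0 to 6 chains called, with calls only without wildtype 1, and medians of 1.73 to 3.88 for cartilage, 0.37 to 0.87 for network, -0.07 to 0.42 for FACIT, -0.16 to 0.14 for fibrillar and -0.27 to 0.12 for transmembrane chains; fewer libraries entered these fits. Scaling by library size alone shifted the median of all genes to -0.21, the fibrillar median to -0.24 and the cartilage median to 2.07, and turned Col5a1 (-0.15), Col24a1 (-0.17), Col6a1 (-0.05), Col6a3 (-0.08), Col12a1 (-0.02) and Col25a1 (-0.05). Col23a1 turned to 0.01 with voom and to 0.01 with the replicate block. Over the fits without 1 library, the log2 fold change ranged from -0.33 to 0.01 for Col1a1, -0.49 to 0.16 for Col3a1, -0.15 to 0.28 for Col5a1, -0.32 to 0.12 for Col5a3, -0.15 to 0.28 for Col24a1, -0.10 to 0.49 for Col8a2, -0.04 to 0.35 for Col6a1, -0.25 to 0.13 for Col6a2, -0.12 to 0.41 for Col6a3, -0.05 to 0.35 for Col12a1, -0.08 to 0.48 for Col16a1, -0.36 to 0.03 for Col22a1, -0.42 to 0.05 for Col13a1, -0.28 to 0.12 for Col23a1 and -0.04 to 0.37 for Col25a1. The log2 ratio ranged from -0.34 to 0.30 for Col3a1 to Col1a1, -0.10 to 0.08 for Col6a3 to Col6a1, -0.04 to 0.16 for Col9a1 to Col9a2, -0.25 to 0.08 for Col9a3 to Col9a2 and -1.51 to 0.37 for Col10a1 to Col2a1. The cause of these turns was not tested. Dividing by the longest transcript, an alternative chosen after seeing the data, gave 0.913, 0.944 and 0.898 against 0.864, 0.742 and 0.708 for Col6a1 to Col6a2, with the same order of groups. With 3 libraries a group, and counts of 0 to 23 for Col4a6 and Col28a1, differences of these scarce chains cannot be read closely.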
